A study of Mus musculus with 5 samples.

Results

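DEAD-box and DEAH-box proteins are RNA helicases that use ATP to open short RNA duplexes, to strip proteins from RNA or to clamp onto it. They are named after a short ATP-binding motif, motif II, and they act at nearly every step in the life of an RNA, from transcription and splicing through export, ribosome assembly and translation to decay. The genes described here are the protein-coding genes of GENCODE M21 (mouse build GRCm38) whose symbol begins with Ddx or Dhx followed by a number, with Ddx20, Ddx58 and Dhx58 left out. The rule gave 50 genes of 54838 listed, 35 named Ddx and 15 named Dhx, and it used no measured value. Their RNA was measured in the mouse neuroblastoma line N2a, 24 hours after the last of 2 lipid transfections with an siRNA against Ewsr1 (siEwsr1, n = 3) or a control siRNA (siCtrl, n = 2), and apart from the siRNA both groups had the same treatment. The product of Ewsr1 binds RNA and DNA and belongs to the FET family. Total RNA was sequenced after removal of ribosomal RNA, which keeps unspliced and non-polyadenylated RNA in the libraries. Nothing in the labels ties the libraries of a group to separate cultures, so the spread that the p-values rest on may be technical.

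The siEwsr1 libraries held 15045774, 21339459 and 17475740 counted reads and the siCtrl libraries 15766280 and 17314511, as worked out from the deposited values. Levels are RPKM, reads per exonic kilobase scaled to the library total, with the decimal points that the deposited values had lost put back. Ewsr1 stood at 35.7, 36.3 and 37.6 RPKM in siEwsr1 libraries, against 71.7 and 72.3 RPKM in siCtrl libraries, with a log2 fold change of -0.96 (limma adjusted p = 8.34e-04, SE 0.08). Of the neuroblastoma and sympathetic markers, 10 were above 1 RPKM in every library, while Th lay at 0.611 to 1.11 RPKM. Their summed level was 754 to 798 RPKM in siEwsr1 libraries and 600 to 625 RPKM in siCtrl libraries, and 4 of them were called. Most of this sum came from 1 called gene, and not every marker was higher in siEwsr1. The 7 fibroblast and mural markers summed to 0.890 to 0.971 RPKM in siEwsr1 libraries and 2.94 to 3.22 RPKM in siCtrl libraries, with Lum and Thy1 at 0, Col1a1, Col1a2 and Dcn each at or under 0.0198 RPKM, and 1 marker called. That 1 marker made up most of the sum in every library and most of the difference between the groups. The part of these marker differences in the results below was not tested, and in bulk RNA fewer cells of a type and less RNA per cell cannot be told apart. Summed glial markers (5 genes) reached at most 1.42 RPKM in siEwsr1 libraries and 1.199 RPKM in siCtrl libraries. Summed myeloid and lymphoid markers (5 genes) reached at most 1.002 RPKM in siEwsr1 libraries and 0.735 RPKM in siCtrl libraries.

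Motif II is the part of the coding sequence that the family name comes from, so the codons for it show how the members differ. It was searched in the coding sequence of 1 transcript per gene as codons for D, then E or Q, then A, C, I, V, L, G or S, then D, H or Q, preceded by codons for hydrophobic residues. It was found in 49 of the 50 genes and not in Dhx32. The codons spell DEAD in 27 genes, DEAH in 9, DEVH in 5, DEVD in 3, DECD in 2, DEIH in 2 and DESD in 1. All but 2 of the Ddx genes have the version ending in D, and all 14 matched Dhx genes have the version ending in H. The exceptions are Ddx11, whose product is a DNA helicase, and Ddx60. The stretches below are 30 bases from the coding strand, 5′ to 3′, from the GENCODE M21 transcripts on GRCm38, with the 12 bases of motif II in capitals. They are the paralogue pairs the results turn on, the decay helicase Ddx6, and Dhx15 and Dhx9 as examples of the DEAH and DEIH versions.
Ddx5 (chr11:106785184-106785213, minus strand): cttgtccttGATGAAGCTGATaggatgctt
Ddx17 (chr15:79538866-79538895, minus strand): cttgtgttgGATGAGGCTGACcggatgctt
Ddx39 (chr8:83721101-83721130, plus strand): tttgtgctaGATGAATGTGACaagatgctg
Ddx39b (chr17:35247081-35247110, plus strand): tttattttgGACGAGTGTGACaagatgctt
Ddx19a (chr8:110979077-110979106, minus strand): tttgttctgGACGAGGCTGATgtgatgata
Ddx19b (chr8:111011326-111011355, minus strand): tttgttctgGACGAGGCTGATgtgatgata
Ddx6 (chr9:44626468-44627652, plus strand, split by an intron): atagtgctaGATGAGGCAGATaaattgttg
Dhx15 (chr5:52171487-52171516, minus strand): ataattcttGATGAGGCCCATgaaagaaca
Dhx9 (chr1:153468880-153468909, minus strand): gttattgtgGATGAAATTCATgaaagagat
Ddx19a and Ddx19b are identical over this stretch. Over whole transcripts they share 831 windows of 50 bases, 12.4% of those of Ddx19b and 28.1% of those of Ddx19a. A read that lies wholly within such windows cannot be assigned to either gene. Ddx17 and Ddx5, Ddx39b and Ddx39, and Ddx50 and Ddx21 share 0 such windows, and Ddx3y and Ddx3x share 2.

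Most helicase genes were expressed well above the median of all genes tested in these cells. Among the 46 that reached 10 reads in 2 or more libraries, counted at the median depth, the median level was 19.5 RPKM. Over all 14841 genes that passed the same filter, noncoding genes included, it was 5.06 RPKM. By their mean over the 5 libraries, 3 genes stood above 100 RPKM, 33 between 10 and 100, 10 between 1 and 10, and 4 below 1. Reads per library ran from 52, for the decay factor Dhx34 in siEwsr1 replicate 1, to 43666, for Ddx5 in siEwsr1 replicate 2, so counting error is smallest for Ddx5 and largest for Dhx34.

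**Figure D1:**
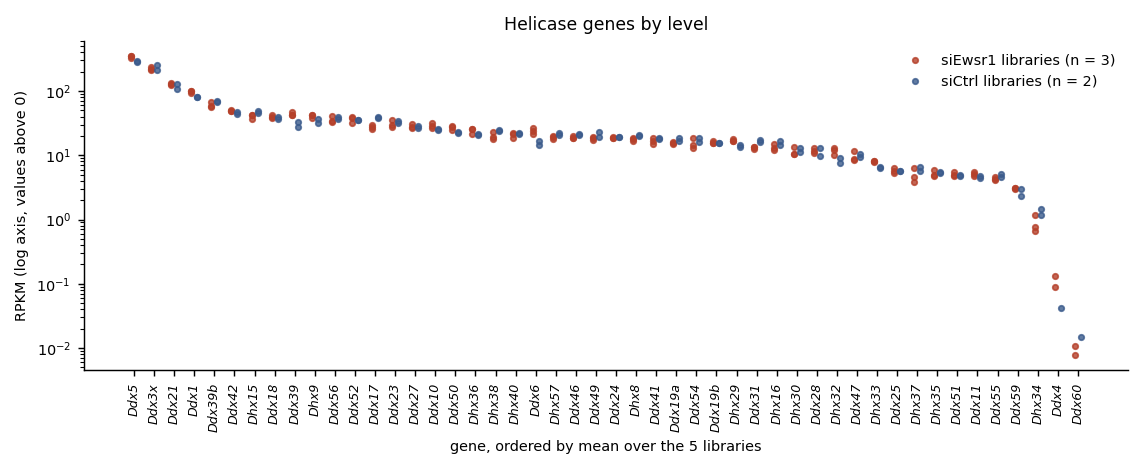
Level of each helicase gene with reads in any library (points, values above 0 only; siEwsr1 n = 3, siCtrl n = 2), in RPKM on a log axis, ordered by the mean over the 5 libraries. Ddx5, Ddx3x and Ddx21 lie above 100 RPKM, most genes lie between 10 and 100 RPKM, and Ddx4 and Ddx60 lie far below the others.

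The 5 most abundant members were Ddx5, Ddx3x, Ddx21, Ddx1 and Ddx39b, in this order by the mean over all libraries. Ddx3x, which helps ribosomes through structured leaders, stood at 224, 234 and 213 RPKM in siEwsr1 libraries, against 253 and 212 RPKM in siCtrl libraries. Ddx21, which acts in the transcription and processing of ribosomal RNA, stood at 124, 134 and 127 RPKM in siEwsr1 libraries, against 128 and 107 RPKM in siCtrl libraries. For both the siEwsr1 and siCtrl libraries overlapped, and neither gene passed the test (log2 fold change -0.03 and 0.14, adjusted p = 0.877 and 0.439, limma).

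The 4 genes that were not tested were at or near 0. Ddx4, the Vasa helicase of germ cells, had 4, 0 and 7 reads in siEwsr1 libraries and 2 and 0 in siCtrl libraries. Ddx60, an antiviral helicase, had 1, 2 and 0 reads in siEwsr1 libraries and 2 and 0 in siCtrl libraries. Ddx43, a gene of germ cells and tumours, and the Y-linked Ddx3y had 0 reads in all 5 libraries. A count of 0 allows up to 3 reads, which in the library with the highest limit is 0.0903 RPKM for Ddx43 and 0.0384 RPKM for Ddx3y (counting error only).

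To ask which helicase genes changed with the siRNA against Ewsr1, siEwsr1 was compared with siCtrl by limma on log2(RPKM + 0.1), with p-values adjusted over all 14841 genes. Ddx6, Ddx39 and Dhx32 rose, Ddx17 fell, and 42 genes did not pass the test. The share called was thus 8.70% (4 of 46), against 5.15% of all genes tested, with 2.39% of all genes called higher and 2.77% called lower. Changes were small: log2 fold changes ran from -0.58 to 0.63, their median was -0.03 against -0.01 over all genes, and the median size was 0.18 against 0.19. Of the 46 genes, 22 had a log2 fold change above 0 and 24 below, and 48.3% of all genes lay above 0. An unadjusted p under 0.05 was found for 13 of the 46 and for 22.1% of all genes.

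After scaling, the siEwsr1 and siCtrl libraries did not overlap for 27 of the 46 genes, 16 higher and 11 lower, a share of 58.7%. Over all genes this share was 39.8%, made up of 19.3% higher and 20.5% lower. Genes are measured in the same 5 libraries and do not vary independently. On the RPKM values before scaling 23 members did not overlap, because Ddx19b, Ddx51, Ddx59 and Dhx34 then had overlapping groups by narrow margins. Of the 3 siEwsr1 libraries, replicate 3 lay nearest to the control mean for 26 of the 46 genes (56.5%), against 43.5% of all genes, and replicates 1 and 2 for 10 genes each.

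**Figure D2:**
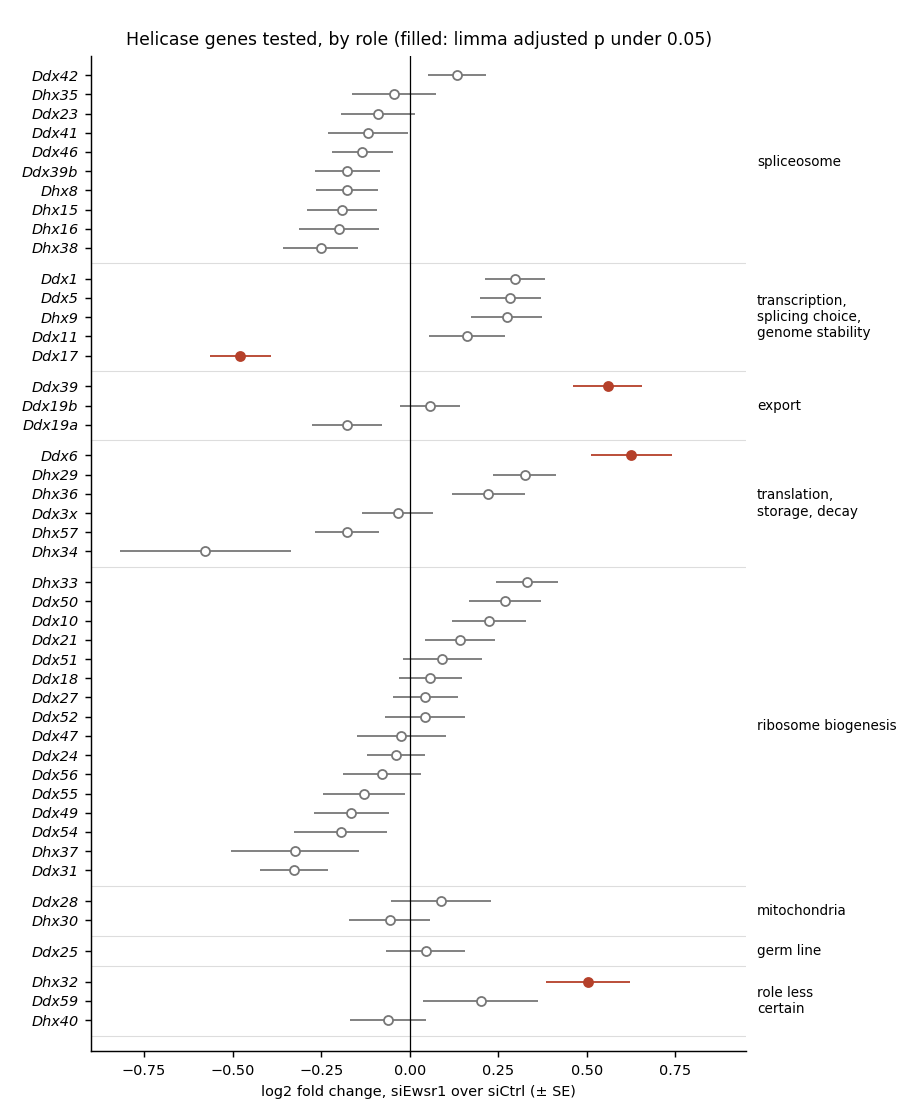
Log2 fold change of the 46 tested helicase genes, siEwsr1 over siCtrl, with its standard error, grouped by role and ordered by size within a role. Filled points passed the test: Ddx6, Ddx39 and Dhx32 lie to the right of 0 and Ddx17 to the left, and 9 of 10 spliceosome genes lie left of 0 without passing.

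Calls rested on single libraries, for all genes as for the members. Without siEwsr1 replicate 3, 11 members were called higher and 10 lower, and 26.0% of all genes were called, against 5.15% with all libraries. Without siEwsr1 replicate 1 no member was called in either direction, where 0.814% of all genes were called. Without siEwsr1 replicate 2 the same 3 genes were called higher and Ddx17 lower, among 3.99% of all genes. With any 1 library left out, the log2 fold change stayed between 0.54 and 0.72 for Ddx6, between 0.46 and 0.67 for Ddx39, between 0.42 and 0.61 for Dhx32 and between -0.50 and -0.42 for Ddx17. Leaving out a control leaves 1 siCtrl library, which is then assumed to vary like the others.

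**Figure D3:**
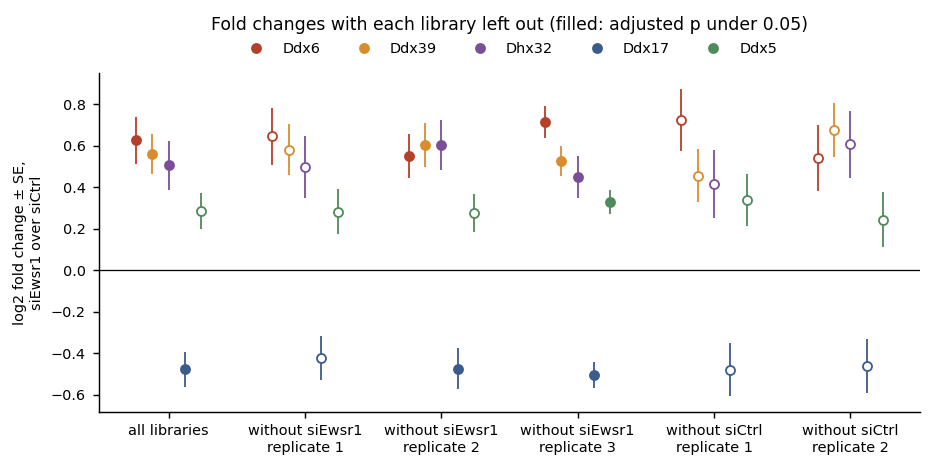
Log2 fold changes of Ddx6, Ddx39, Dhx32, Ddx17 and Ddx5, siEwsr1 over siCtrl, with standard errors, from all 5 libraries and with each library left out. Filled points have a limma adjusted p under 0.05. The 4 called genes keep their direction with each library left out, and their calls are lost without siEwsr1 replicate 1 or either siCtrl replicate.

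Among helicases of transcription, splicing choice and genome stability (Ddx1, Ddx5, Ddx17, Dhx9 and Ddx11), Ddx17 fell and the other 4 lay above 0 without passing the test. Ddx5 and Ddx17 are close paralogues that act as transcriptional coregulators, in the choice of splice sites and with the microprocessor that cuts microRNA precursors. Ddx17 (ENSMUSG00000055065, chr15:79527736-79546741, minus strand) stood at 26.1, 28.0 and 29.3 RPKM in siEwsr1 libraries, against 38.6 and 39.7 RPKM in siCtrl libraries. All 3 siEwsr1 libraries were lower than either control. The means were 27.8 ± 1.64 RPKM (SD, n = 3) in siEwsr1 and 39.2 ± 0.787 RPKM (SD, n = 2) in siCtrl, and the log2 fold change was -0.48 (limma adjusted p = 0.0133, SE 0.09).

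Ddx5 (ENSMUSG00000020719, chr11:106780355-106789185, minus strand), the most abundant member, stood at 352, 354 and 329 RPKM in siEwsr1 libraries, against 293 and 279 RPKM in siCtrl libraries. All 3 siEwsr1 libraries were higher than either control, with means of 345 ± 13.7 RPKM (SD, n = 3) in siEwsr1 and 286 ± 10.1 RPKM (SD, n = 2) in siCtrl. Its log2 fold change of 0.28 (SE 0.09) did not pass the limma test (adjusted p = 0.0886). Without siEwsr1 replicate 3, where 26.0% of all genes were called, Ddx5 passed, with a log2 fold change of 0.33 (limma adjusted p = 5.72e-04). Ddx1, a subunit of the transfer RNA ligase complex, stood at 100.0, 99.6 and 94.4 RPKM in siEwsr1 libraries, against 80.8 and 80.3 RPKM in siCtrl libraries (log2 fold change 0.30, adjusted p = 0.0726, limma). Its groups did not overlap either, nor did those of Dhx9, known as RNA helicase A (log2 fold change 0.27, adjusted p = 0.147), or of Ddx11, a DNA helicase of sister chromatid cohesion (0.16, adjusted p = 0.418).

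**Figure D4:**
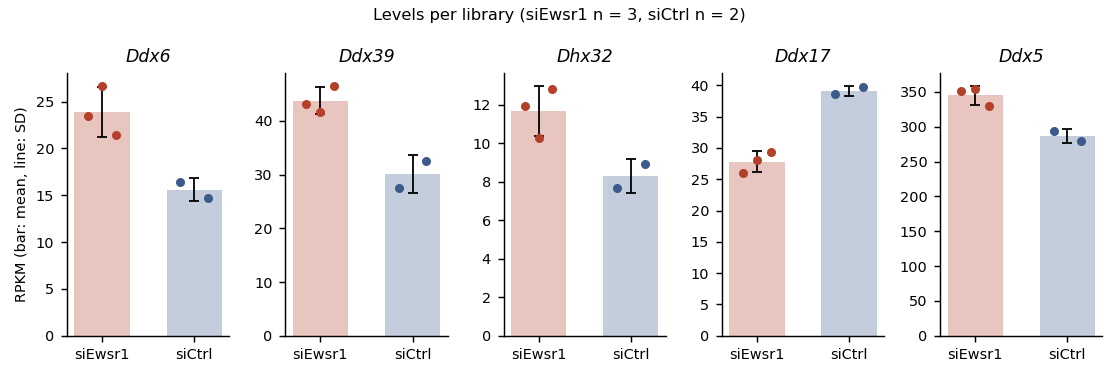
RPKM of Ddx6, Ddx39, Dhx32, Ddx17 and Ddx5 in each library (points), with the mean (bar) and SD (line) of siEwsr1 (n = 3) and siCtrl (n = 2), on axes that start at 0. The siEwsr1 points of Ddx17 lie below both siCtrl points, and those of the other 4 genes lie above them.

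The balance of the Ddx5 and Ddx17 pair differed between the groups. Ddx17 made up 6.91%, 7.32% and 8.18% of their summed RPKM in siEwsr1 libraries, against 11.6% and 12.5% in siCtrl libraries. The ratio of Ddx5 to Ddx17 was 13.5, 12.7 and 11.2 in siEwsr1 libraries and 7.60 and 7.03 in siCtrl libraries. All 3 siEwsr1 libraries were thus further towards Ddx5, and the sum of the pair was also higher, at 378, 382 and 359 RPKM in siEwsr1 libraries, against 332 and 319 RPKM in siCtrl libraries. The log2 ratio of Ddx17 to Ddx5 was -3.63 ± 0.13 (SD, n = 3) in siEwsr1 and -2.87 ± 0.08 (SD, n = 2) in siCtrl, a difference of -0.76 (exact permutation test, two-sided, p = 0.1, adjusted over 4 pairs 0.133). With 2 libraries against 3, an exact permutation test cannot give a p below 0.1, so this difference cannot pass.

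Of the other paralogue pairs, Ddx39b and Ddx39 also stood apart. The log2 ratio of Ddx39b to Ddx39 was 0.44, 0.44 and 0.52 in siEwsr1 libraries and 1.33 and 1.08 in siCtrl libraries, a difference of -0.74 (exact permutation p = 0.1, adjusted 0.133). The log2 ratio of Ddx19b to Ddx19a was -0.02, 0.04 and 0.10 in siEwsr1 libraries and -0.26 and -0.13 in siCtrl libraries, a difference of 0.23 (exact permutation p = 0.1, adjusted 0.133). The shared windows of Ddx19a and Ddx19b make both of their levels uncertain. The log2 ratio of Ddx50 to Ddx21 overlapped between the groups, with a difference of 0.13 (exact permutation p = 0.4, adjusted 0.4). Ddx3y was at 0, so no ratio to Ddx3x was computed.

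**Figure D5:**
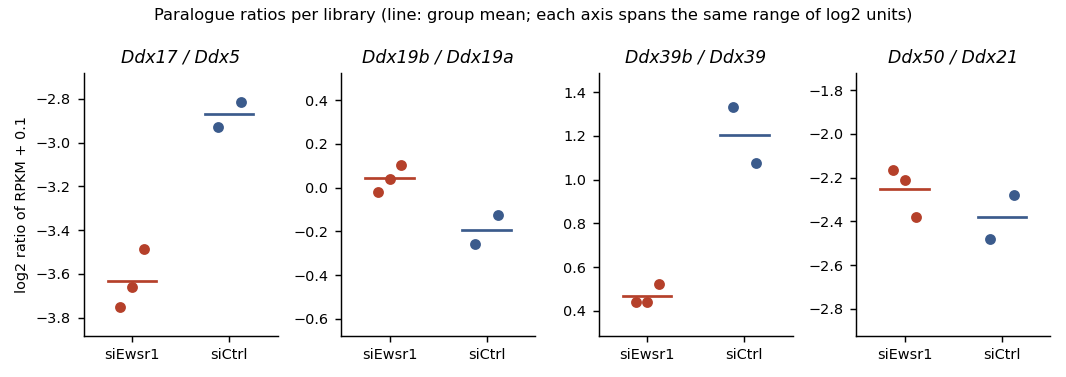
Log2 ratio of RPKM between paralogues in each library (points) with the group mean (line), siEwsr1 (n = 3) left of siCtrl (n = 2). The plotted ratios hold no added 0.1, although the axis label names it. The 4 vertical axes start at different values and span the same length. The siEwsr1 points lie below the siCtrl points for Ddx17 to Ddx5 and for Ddx39b to Ddx39, above them for Ddx19b to Ddx19a, and among them for Ddx50 to Ddx21.

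Among the 3 export helicases, Ddx39 rose and Ddx19a and Ddx19b did not pass the test. Ddx39, which is close to the splicing and export factor Ddx39b and loads export adaptors on messages, is ENSMUSG00000005481 (chr8:83715177-83726892, plus strand). It stood at 43.1, 41.7 and 46.6 RPKM in siEwsr1 libraries, against 27.5 and 32.6 RPKM in siCtrl libraries. All siEwsr1 libraries were higher than both controls (mean 43.8 ± 2.52 RPKM in siEwsr1, SD, n = 3, against 30.1 ± 3.57 RPKM in siCtrl, SD, n = 2), and the log2 fold change was 0.56 (SE 0.10, adjusted p = 0.0117, limma). Of the exonic bases of Ddx39, 17.4% overlap exons of Adgre5 on the opposite strand, but Adgre5 was at most 0.228 RPKM in any library. The decimal point of Ddx39 was read above its lowest possible place in 1 library, as was that of Ddx5.

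Ddx19a and Ddx19b act at the nuclear pore, where they release export factors from messages. Ddx19a stood at 16.0, 15.2 and 15.7 RPKM in siEwsr1 libraries, against 18.9 and 16.9 RPKM in siCtrl libraries. Ddx19b stood at 15.8, 15.7 and 16.9 RPKM in siEwsr1 libraries, against 15.8 and 15.5 RPKM in siCtrl libraries. The siEwsr1 libraries were lower than both controls for Ddx19a, and for Ddx19b the groups overlapped before scaling (log2 fold change -0.18 and 0.06, adjusted p = 0.326 and 0.742, limma).

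Among helicases of translation, storage and decay of messages, Ddx6 rose and the other 5 tested genes did not pass. Ddx6 represses translation and promotes decapping, and it is a core protein of processing bodies. Ddx6 (ENSMUSG00000032097, chr9:44604892-44640731, plus strand) stood at 23.5, 26.7 and 21.4 RPKM in siEwsr1 libraries, against 16.4 and 14.7 RPKM in siCtrl libraries. Each siEwsr1 library was higher than both controls, with replicate 3 the closest to them. The means were 23.9 ± 2.65 RPKM (SD, n = 3) in siEwsr1 and 15.6 ± 1.23 RPKM (SD, n = 2) in siCtrl, and its log2 fold change, 0.63 (SE 0.11, limma adjusted p = 0.0146), was the highest among the members.

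The lowest log2 fold change of all members, -0.58 (SE 0.24), was that of Dhx34, a factor of nonsense-mediated decay, and did not pass the test (adjusted p = 0.199, limma). Dhx34 stood at 0.752, 0.673 and 1.19 RPKM in siEwsr1 libraries, against 1.48 and 1.19 RPKM in siCtrl libraries, with siEwsr1 replicate 3 level with siCtrl replicate 2. Dhx29, which helps initiation on structured leaders, stood at 16.9, 17.8 and 16.8 RPKM in siEwsr1 libraries, against 14.2 and 13.5 RPKM in siCtrl libraries (log2 fold change 0.32, adjusted p = 0.0660, limma). Its groups did not overlap, nor did those of Dhx36, a helicase of G-quadruplexes (log2 fold change 0.22, adjusted p = 0.241), and of Dhx57 (-0.18, adjusted p = 0.284). Of the exonic bases of Dhx57, 6.45% overlap other genes, among them Morn2 on the opposite strand. Morn2 stood at 8.11, 9.29 and 8.37 RPKM in siEwsr1 libraries, against 12.4 and 9.68 RPKM in siCtrl libraries. The part of Morn2 in the value of Dhx57 was not tested.

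The 10 spliceosome helicases had log2 fold changes from -0.25 to 0.13. None passed the test with limma or with voom weights, where 5.15% and 5.55% of all genes were called. An unadjusted p under 0.05 (limma) was found for 1 of the 10 and for 22.1% of all genes. Of the 10 helicases, 9 lay below 0, with a median of -0.15, and the median over all genes was -0.01. The groups did not overlap for 6 of the 10, 5 lower and 1 higher in siEwsr1, against 39.8% of all genes, 20.5% lower and 19.3% higher. With any 1 library left out, 8 or 9 of the 10 lay below 0 and the median stayed between -0.19 and -0.12. Under both other scalings tried the count below 0 was also 9 of 10. Those scalings shift all genes by nearly the same small amount, so this is no further support. Without siEwsr1 replicate 3, where 26.0% of all genes were called, 5 of the 10 were called lower (Ddx23, Ddx39b, Dhx8, Dhx16 and Dhx38) and none higher. Without siEwsr1 replicate 1 or 2 none of the 10 was called, where 0.814% and 3.99% of all genes were called. At such shares no call among 10 genes says little, and a change of the group was not tested.

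Dhx38, the PRP16 helicase that acts between the steps of splicing, had the lowest value of this role, with 19.5, 18.2 and 23.3 RPKM in siEwsr1 libraries, against 23.8 and 24.9 RPKM in siCtrl libraries (log2 fold change -0.25, adjusted p = 0.199, limma). The siEwsr1 libraries were lower than both controls, replicate 3 only narrowly. Other low members were Dhx16, the PRP2 helicase of spliceosome activation (-0.20), Dhx15, the PRP43 helicase of spliceosome disassembly (-0.19), and Dhx8, the PRP22 helicase that releases the spliced message (-0.18). Ddx39b, which acts in early spliceosome assembly and in export, stood at 58.4, 56.5 and 66.9 RPKM in siEwsr1 libraries, against 69.4 and 68.7 RPKM in siCtrl libraries (log2 fold change -0.18, adjusted p = 0.291, limma). All siEwsr1 libraries were lower than both controls.

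Ddx46, the PRP5 helicase of branch site recognition, had a log2 fold change of -0.13, Ddx41 of -0.12, Ddx23, a helicase of the U5 particle, of -0.09 and Dhx35 of -0.04. Ddx42, which binds the branch site factor SF3B1, was the exception above 0, at 49.2, 49.8 and 49.6 RPKM in siEwsr1 libraries, against 46.7 and 44.6 RPKM in siCtrl libraries (log2 fold change 0.13, adjusted p = 0.38, limma). The siEwsr1 libraries of Ddx42 lay above both controls.

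The 16 helicases of ribosome biogenesis split evenly, 8 above and 8 below 0. None passed the test with limma or with voom weights, where 5.15% and 5.55% of all genes were called. At such shares no call among 16 genes says little. An unadjusted p under 0.05 (limma) was found for 3 of the 16 and for 22.1% of all genes. Dhx33, which acts in transcription of ribosomal RNA, had the highest value, at 8.22, 7.98 and 8.25 RPKM in siEwsr1 libraries, against 6.37 and 6.68 RPKM in siCtrl libraries. Its groups did not overlap, and its log2 fold change was 0.33 (SE 0.09, adjusted p = 0.0565, limma). Dhx33 passed with median-of-ratios scaling (5.13% of all genes called), with a filter of 50 reads (7.29%) and without siEwsr1 replicate 3. Without that library Ddx10 and Ddx50 were also called higher, and Ddx31, Ddx54 and Dhx37 lower, among 26.0% of all genes. Ddx31 had the lowest value, at 12.4, 13.4 and 13.6 RPKM in siEwsr1 libraries, against 16.0 and 17.4 RPKM in siCtrl libraries. All siEwsr1 libraries of Ddx31 were lower than both controls (log2 fold change -0.33, SE 0.10, adjusted p = 0.0836, limma).

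Dhx37, a helicase of the small subunit processome, also had a log2 fold change of -0.33, but its groups overlapped and its SE was 0.18. Ddx50, the nucleolar paralogue of Ddx21, stood at 27.7, 28.8 and 24.4 RPKM in siEwsr1 libraries, against 23.0 and 22.1 RPKM in siCtrl libraries (log2 fold change 0.27, adjusted p = 0.155, limma). Ddx50 and Ddx10 (0.22), the next highest after Dhx33, did not overlap between the groups, nor did, on the lower side, Ddx24 (-0.04). The remaining genes of this role had groups that overlapped before scaling and log2 fold changes from -0.19 (Ddx54) to 0.14 (Ddx21). Ddx49 shares 29.8% of its exonic bases with Homer3 on the opposite strand, which stood at 4.22 to 5.11 RPKM in siEwsr1 libraries and 4.37 to 4.52 RPKM in siCtrl libraries, so the level of Ddx49 is less certain. Ddx54 shares 15.5% with genes on the opposite strand that were at most 0.306 RPKM in any library.

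In the mitochondrial role, Ddx28 and Dhx30, both known from assembly of mitochondrial ribosomes, had overlapping groups. Ddx28 stood at 11.8, 10.7 and 12.95 RPKM in siEwsr1 libraries, against 9.73 and 12.8 RPKM in siCtrl libraries (log2 fold change 0.09, adjusted p = 0.759, limma). Dhx30 stood at 10.6, 10.4 and 13.4 RPKM in siEwsr1 libraries, against 11.2 and 12.8 RPKM in siCtrl libraries (log2 fold change -0.06, adjusted p = 0.816, limma). Ddx25, a helicase known from testis, was at 6.40, 5.26 and 5.78 RPKM in siEwsr1 libraries, against 5.62 and 5.74 RPKM in siCtrl libraries, and the groups overlapped (log2 fold change 0.04).

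Of 3 genes whose role is less certain, Dhx32 rose. Dhx32 (ENSMUSG00000030986, chr7:133720942-133782726, minus strand) stood at 11.96, 10.3 and 12.8 RPKM in siEwsr1 libraries, against 7.66 and 8.92 RPKM in siCtrl libraries. All siEwsr1 libraries were higher than both controls (mean 11.7 ± 1.30 RPKM in siEwsr1, SD, n = 3, against 8.29 ± 0.886 RPKM in siCtrl, SD, n = 2), and the log2 fold change was 0.50 (SE 0.12, adjusted p = 0.0393, limma). Of its exonic bases 4.89% overlap Bccip on the opposite strand, which stood at 61.9, 60.3 and 56.9 RPKM in siEwsr1 libraries, against 52.3 and 51.3 RPKM in siCtrl libraries. The strand setting of the counting is not given in the sources used here, and the part of Bccip in the value of Dhx32 was not tested. Ddx59 stood at 2.95, 3.11 and 3.06 RPKM in siEwsr1 libraries, against 2.36 and 2.99 RPKM in siCtrl libraries (log2 fold change 0.20, adjusted p = 0.508, limma). The groups of Ddx59 overlapped before scaling, and Dhx40 (-0.06) overlapped on either scale, at 21.5, 22.5 and 18.6 RPKM in siEwsr1 libraries, against 22.3 and 21.6 RPKM in siCtrl libraries.

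Sites of 7 bases in 3′ UTRs were looked up because the 7-mers TCACTGC and GCAATTT had been picked earlier from fold changes of these same libraries, so the counts are no independent evidence. On the strand of the message, TCACTGC was found in 2 of 46 members (4.35%), against 12.1% of 11693 tested protein-coding genes with a 3′ UTR, and GCAATTT in 0 of 46, against 6.99%. The median 3′ UTR searched was 651 bases for the members and 969 bases for all genes. The members with TCACTGC were Ddx17, which fell, and Ddx6, which rose. Their sites are given as 30 bases of GRCm38 on the strand of the gene, with the 7-mer in capitals.
Ddx17 (chr15:79529850-79529879, minus strand): tagttaaaattTCACTGCcaggtttcttct
Ddx6 (chr9:44637253-44637282, plus strand): agagcagcctcTCACTGCaggagccagatg
The 2 genes that hold the 7-mer thus moved in opposite directions.

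Genes that work with these helicases were read from lists of partners. Of 20 tested RNA helicases with other names (22 listed), such as Eif4a1 and Upf1, Ascc3 fell and none rose. Ascc3, a helicase of the ribosome quality control and DNA repair complex ASCC, stood at 15.3, 16.3 and 13.2 RPKM in siEwsr1 libraries, against 23.2 and 22.6 RPKM in siCtrl libraries (log2 fold change -0.60, adjusted p = 0.0138, limma). All siEwsr1 libraries were lower than both controls. Of 25 tested partners in decapping, deadenylation and translation, Dcp2, the decapping enzyme that acts with Ddx6, rose, at 14.7, 15.4 and 13.8 RPKM in siEwsr1 libraries, against 10.99 and 10.8 RPKM in siCtrl libraries (log2 fold change 0.43, adjusted p = 0.0280, limma). The groups of Dcp2 did not overlap, and the other 24 genes of that list did not pass.

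Of 26 tested G-patch proteins and other activators of DEAH helicases, Gpatch3 fell (log2 fold change -0.70, adjusted p = 0.0375, limma). Of 24 exon junction and export factors, Thoc3, a subunit of the THO complex, fell (-0.39, adjusted p = 0.0419). Of 37 tested nucleolar processome factors, Nol10 rose (0.49, adjusted p = 0.0286). Of 26 microprocessor and transcription partners of Ddx5 and Ddx17, Hnrnph1, a splicing regulator, rose (0.38, adjusted p = 0.0423), and Ewsr1 itself fell. Over the 6 lists, 3 genes were called higher and 4 lower, Ewsr1 itself included. This is 7 of 158 tested (4.43%), against 5.15% of all genes, so the share is no higher than the background. Leaving out siEwsr1 replicate 3 gave 29 higher and 23 lower, where 26.0% of all genes were called. Leaving out siEwsr1 replicate 2 gave 2 and 2, where 3.99% of all genes were called. Leaving out siEwsr1 replicate 1 gave 0 higher and 1 lower, where 0.814% of all genes were called.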

How the data were processed

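The submitters' processing notes name STAR 2.5.2b, featureCounts 1.5.1, edgeR and GRCm38. Annotation release, strand setting and filters are not stated there. The authors deposited 1 value per gene and library (a score on no plain scale, unit recorded as other) that behaves as RPKM, with the decimal point lost from values of 1 or more. A value times exonic length (GENCODE M21) and library total must give whole reads, and 98.5% to 98.6% of intact values did. The library total was set from these same values, so this share is no independent check of it. The recovered reads of a library summed to a value 0.0507% to 0.0785% away from its total. Decimal places were restored jointly over libraries, without group labels. All 50 members were recovered, 13 with at least 1 library read above its lowest place (odds at least 43.3).

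Computed here: limma 3.58.1 (R 4.3.3) on log2(RPKM + 0.1), which understates changes of low genes, with trimmed-mean scaling (30% of ratios, 5% of levels), a variance trend on mean log2 CPM, robust moderation and Benjamini-Hochberg adjustment, called under 0.05. The filter was 10 reads in 2 libraries, counted at the median library size. Alternatives in scaling, pseudocount, filter, decimal reading, model and libraries were run. Restoration and fit were run on simulated reads, in which libraries differed only by depth, random spread and the fold changes put in. The dependence of calls on single libraries was not covered by that run. Members and lists were chosen with earlier results of these data known. Full values are given for called members, paralogues, the 5 most abundant and the extremes of each role. Groups follow the sample titles. An item among the cell type markers is not reported here.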

Additional observations from a re-analysis of the deposited data

How the results depend on the processing

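Ddx6, Ddx39, Dhx32 and Ddx17 stayed called with median-of-ratios scaling (5.13% of all genes called) and with scaling by library total (5.28%). They also stayed called with a pseudocount of 0.01 (5.60%), a filter of 50 reads (7.29%) and voom weights (5.55%, added after seeing the data). Dhx33 joined them with median-of-ratios scaling and with the filter of 50 reads. Among members with under 10% of exonic bases shared, an alternative added after seeing the data, 2 were called higher and 1 lower. The share over all genes tested, whatever their overlap, was 5.15%. With no filter, 0 members were called (20 genes higher and 41 lower over all genes; partner lists 0 and 1), and without variance trend or robust moderation 0 genes of any kind. With a pseudocount of 1, Ddx39 and Ddx17 were called (1 and 1; all genes 169 and 215; partners 0 and 1), and with the trend on RPKM, added after seeing the data, the same 2 (all genes 116 and 149; partners 0 and 1). Without genes read above the lowest decimal place, 33 members were tested, and Ddx39 and Ddx5 were not among them. Ddx6 and Dhx32 were then called higher and Ddx17 lower, where 4.82% of all genes were called (partners 1 and 3). Reading each value at its lowest place, which makes some values 10 times too low in single libraries, called 0 members (all genes 38 and 3; partners 1 and 0) and reversed Ddx39 (-0.53), Ddx5 (-0.82), Ewsr1 (0.70) and the Ddx17 to Ddx5 ratio (0.34). With 1 library left out, calls ranged from 0 to 11 higher and 0 to 10 lower for members, from 3 to 1873 and 3 to 1888 for all genes, and from 0 to 29 and 0 to 23 for partners.

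With the replicate number as a block, 11 members were called higher and 8 lower, and 22.7% of all genes were called (1661 higher and 1707 lower, partners 25 and 20). Among the members were 3 spliceosome genes lower and 3 genes of ribosome biogenesis in each direction. No control has the number of siEwsr1 replicate 3, so that library does not bear on the fold changes of this fit. It thus repeats the fit without that library (Ddx5 0.33 in both) and adds no separate evidence. Libraries with the same number did not deviate together (correlation 0.03 for number 1 and -0.12 for number 2), so the numbers were not taken as pairs. DESeq2 and edgeR were not run, because the deposited values are not counts. The reads recovered from them are whole numbers, and the voom weights were computed from these reads.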
